A study of Mus musculus with 6 samples.

Results

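The genes described here are 48 genes of the cell cycle and of DNA replication, taken by symbol for their known roles, with earlier results of these data known. They comprise the D-type cyclins and their kinases (5 genes), the cyclins, kinase and E2F factors of the G1/S transition (5), genes of replication licensing and of the replication fork (11), genes of nucleotide synthesis (4), genes of G2 and mitosis (18), CDK inhibitors (3) and a pair of genes for chromatin and the cytoskeleton. Of these, 45 had a row among the 35237 genes of the FPKM table and 46 among the 36536 entries of the ALEXA-Seq table. Cdt1 had a row in the ALEXA-Seq table only, and Cdk1 and Cdc45 were present in both tables under older symbols.

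The study compared bone marrow monocytes (BMDM) with brainstem microglia (BSM), the macrophages that reside in the brain, to find transcripts that tell the cell types apart. Both came from C57BL/6 mice at 6 weeks of age. The labels name no treatment and no altered allele, and the cells of several mice were pooled for each of 3 libraries per cell type. BMDM were sorted as CD11b+ cells with high CD45 that carried CD115 and lacked Ly6G, whereas BSM were CD11b+ cells with low CD45 and low CD115 that also lacked Ly6G. By the labels, replicate 1 of each cell type was from males and replicates 2 and 3 were from females. The study's RNA measurements list the same sexes, although its main text speaks of males only. If these sexes hold, a difference of replicate 1 from the others and a difference between the sexes cannot be told apart.

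Cells that divide pass from G1, in which D-type cyclins bind Cdk4 and Cdk6, through the S phase, in which DNA is copied from licensed origins, into G2 and mitosis. E2F factors drive many genes of replication, whereas genes of G2 and mitosis are activated later. The latter are regulated in part through the DREAM and MuvB complexes, which bind a promoter element named CHR. Transcripts of most of these genes are scarce in cells that have left the cycle. Bone marrow is a site of continuous production of monocytes, while adult microglia renew slowly.

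Expression was given as FPKM, fragments scaled by transcript length and by the mapped fragments of a library, so that levels can be compared between genes per length. The FPKM of all genes had sums of 163198.7 to 194184.2 in BMDM and of 68287.8 to 75021.4 in BSM, and over all genes tested the median log2 fold change was 0.81 in favor of BMDM. All 7 monocyte markers (such as Ccr2 and Ly6c2) were differentially expressed in favor of BMDM and all 8 microglia markers (such as P2ry12 and Tmem119) in favor of BSM. The 7 monocyte markers summed to 3278.2 FPKM in BMDM replicate 2, against 1728.5 and 2130.1 FPKM in replicates 1 and 3. In replicate 2, 3 of them were highest and 3 were lowest. The BMDM replicate 2 library also stood apart in the markers of other marrow cells. Its 7 primary granule genes summed to 266 FPKM against 46.1 and 87.8 FPKM in replicates 1 and 3, its 7 neutrophil genes to 113 against 19.7 and 20.2 FPKM, its 8 erythroid genes to 39.9 against 6.92 and 7.41 FPKM and its 9 B lineage genes to 12.4 against 0.462 and 1.80 FPKM. The BSM replicate 1 library listed 472 of the genes tested at exactly 0, against 115 and 93 in BSM replicates 2 and 3 and 51 to 96 in the BMDM libraries, and such a value can be a failed estimate. The study's own RNA measurements put this library lowest of all in RNA integrity and in concentration, and BMDM replicate 2 lowest in sorted cells and in the share of reads mapped. In the BSM libraries the markers of neurons, endothelial cells and oligodendrocytes summed to at most 0.270, 0.268 and 1.21 FPKM. The 4 astrocyte markers summed to 9.51, 5.30 and 6.87 FPKM in BSM, almost all of it from the glutamate transporter Slc1a3, which was higher in BSM (9.51, 5.18 and 6.71 FPKM against at most 0.0922 FPKM in BMDM, limma adjusted p = 0.000131), while Gfap was listed at 0 and Aqp4 reached at most 0.144 FPKM. The part of either library in the results below was tested only by leaving the library out.

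Most of the genes of the cell cycle and of replication were far more abundant in BMDM than in BSM. The D-type cyclin Ccnd1 was higher in BSM, and the kinases Cdk4 and Cdk6 overlapped between the cell types, Cdk4 only through BSM replicate 1. For the CDK inhibitors Cdkn1a and Cdkn1b the differences did not pass the test. Smaller differences were those of Mcm3, Pcna and Tk1, at 4.65-, 2.84- and 2.13-fold by the means, with calls that depended on the processing. Ccnd2 was near 0 in both cell types. The 45 genes summed to 603, 866 and 834 FPKM in BMDM replicates 1, 2 and 3 and to 46.1, 64.5 and 53.9 FPKM in the BSM replicates. As a share of the FPKM of all genes, a measure that does not depend on the total of a library, they made up 0.369%, 0.446% and 0.481% in BMDM and 0.0666%, 0.0860% and 0.0789% in BSM (exact two-sided permutation test, p = 0.1, the smallest value that 3 against 3 libraries can give). Of the 45 genes, 42, 42 and 43 had 1 FPKM or more in the BMDM libraries, against 7, 9 and 10 in the BSM libraries. In these sorted pools, fewer dividing cells and less RNA of these genes per cell cannot be told apart.

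In 42 of the 45 genes every BMDM library lay above every BSM library, as in 55.2% of the 6364 genes tested, and in 1 gene, Ccnd1, every BSM library lay above every BMDM library, as in 11.6% of the genes tested. The ALEXA-Seq values gave 43 of 46 genes and 1 gene, where the backgrounds were 51.5% and 14.6%. The test was limma with Benjamini-Hochberg adjustment on log2(FPKM + 1), over all genes that reached 3 FPKM in 1 library or more. Of the 38 genes that met this minimum, 33 were higher in BMDM at an adjusted p under 0.05, as were 45.3% of all genes tested, and 1 was higher in BSM, as were 9.22%. However, 34 of the 38 reached the minimum only in BMDM, as did 33.4% of the genes tested, and such genes had to differ. Among all genes that reached it only in BMDM, 74.8% were called, against 32 of the 34 here, so that the number of calls says less than the size of the differences. The median log2 fold change was 3.25 for those 34 genes and 1.42 for all genes that reached the minimum only in BMDM. Over the 38 genes the median was 3.00, and with each library scaled to the same sum of FPKM it was 2.33, where all genes tested had a median of -0.23.

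The 7 genes below the minimum were Ccnd2, Ccne1, Cdc20, Cdk2, E2f1, Mcm2 and Tk1, of which Mcm2, Ccne1, Cdk2, E2f1, Cdc20 and Tk1 reached an FPKM of 1. With a minimum of 1, 39 of 44 genes were higher in BMDM and 1 was higher in BSM, where the shares over all 9637 genes were 37.2% and 7.66%. By the ALEXA-Seq values 34 of 37 genes were higher in BMDM and 1 in BSM, where the shares over all genes tested were 37.1% and 10.9%. A positive log2 fold change means more expression in BMDM, and values from log2(FPKM + 1) understate the change of genes that are low in one cell type.

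**Figure D1:**
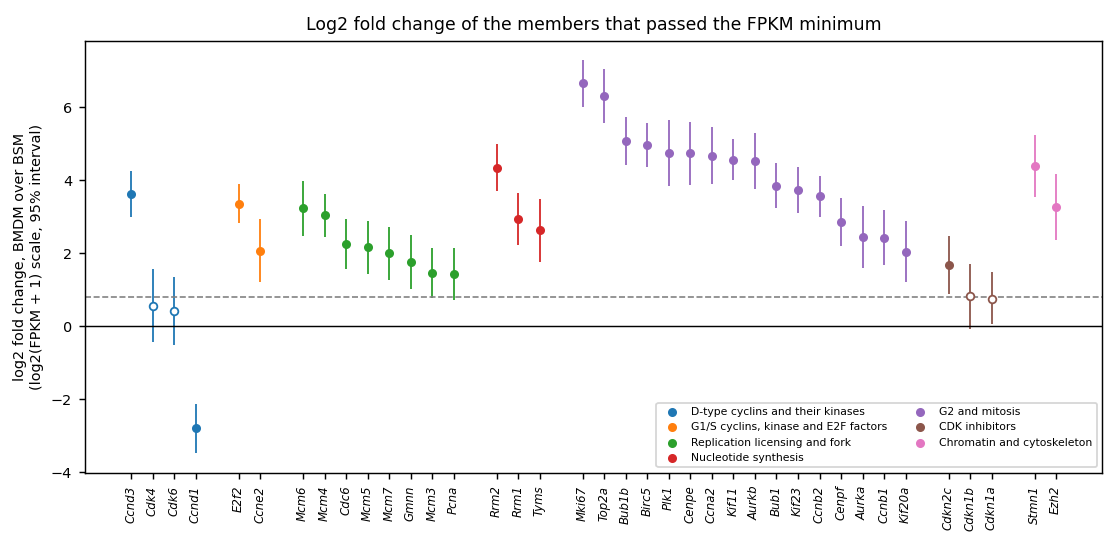
Log2 fold change of the 38 genes tested, with its 95% interval from limma, ordered by role and size. Filled points had an adjusted p under 0.05 and open points did not, and the dashed line marks 0.81, the median of all genes tested. The genes of G2 and mitosis span 2.05 to 6.66, and only Ccnd1, at -2.80, lies below 0.

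The genes of G2 and mitosis had the largest differences of all roles. They summed to 420, 568 and 551 FPKM in BMDM and to 0.580, 4.19 and 2.09 FPKM in BSM. All 16 that passed the minimum were higher in BMDM, with a median log2 fold change of 4.54. Their limma adjusted p-values lay between 2.91e-06 (Mki67) and 0.0025 (Kif20a). Each of the 16 reached the minimum only in BMDM, and 74.8% of all genes tested that did so were called higher in BMDM. Mki67, which encodes the Ki-67 protein that coats mitotic chromosomes (chr7:142881772-142907979, mm9), had 131, 86.6 and 146 FPKM in BMDM and 0, 0.308 and 0.263 FPKM in BSM, which gave 6.66 as the log2 fold change (standard error 0.27, limma adjusted p = 2.91e-06). Top2a, the topoisomerase that untangles sister chromatids (chr11:98854257-98885503, mm9), had 74.7, 134 and 108 FPKM in BMDM and 0.00401, 0.785 and 0.244 FPKM in BSM (log2 fold change 6.31, standard error 0.32, limma adjusted p = 6.28e-06). These were the highest levels of any of the 45 genes in BMDM, and neither gene reached 1 FPKM in any BSM library.

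Among the mitotic cyclins, Ccna2, which acts from S phase to early mitosis, had 22.0, 48.03 and 30.9 FPKM in BMDM and 0, 0.631 and 0.308 FPKM in BSM (log2 fold change 4.68). The B-type cyclins that start mitosis were lower. Ccnb2 had 9.72, 12.8 and 13.2 FPKM in BMDM and 0, 0.202 and 0.0408 FPKM in BSM (3.57), and Ccnb1 had 2.79, 6.41 and 4.54 FPKM in BMDM and was listed at 0 in all 3 BSM libraries, where its ALEXA-Seq values were 0, 0.102 and 0.0290 against 28.1, 75.7 and 49.6 in BMDM. Near-identical copies covered 51.9% of the Ccnb1 transcript, so its values are uncertain. Of the mitotic kinases, Plk1, which acts at centrosomes and kinetochores, had 17.9, 53.3 and 26.6 FPKM in BMDM and 0, 0.135 and 0.279 FPKM in BSM (4.75). Aurkb, the kinase of the chromosomal passenger complex, had 18.8, 43.4 and 27.8 FPKM against 0.272, 0.463 and 0.106 FPKM (4.53), and Aurka, its relative at the spindle poles, had 2.81, 8.20 and 4.43 FPKM against 0, 0.0692 and 0.0794 FPKM (2.46). In each of these kinases and in Ccna2 and Ccnb1 the BMDM replicate 2 library was the highest and replicate 1 the lowest. The limma adjusted p of the 6 genes lay between 2.52e-05 (Ccnb2) and 0.00109 (Aurka).

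The spindle checkpoint and the passenger complex showed the same direction. Bub1b, which holds back anaphase, had 26.4, 49.6 and 36.9 FPKM in BMDM and 0, 0.190 and 0.154 FPKM in BSM (log2 fold change 5.08, limma adjusted p = 9.32e-06). Bub1, a kinase at the kinetochore, had 9.95, 17.5 and 14.1 FPKM against 0, 0.00547 and 0.0158 FPKM (3.85). Birc5, which encodes survivin, had 25.2, 37.0 and 40.1 FPKM against 0, 0.221 and 0.108 FPKM (4.96). All 3 stayed below 1 FPKM in every BSM library. The motor proteins were Kif11, which pushes the spindle poles apart, with 18.3, 26.3 and 26.9 FPKM against 0, 0.0223 and 0.0821 FPKM (4.56), Kif23, which bundles the microtubules of the midzone, with 8.86, 15.2 and 14.4 FPKM against 0, 0.00556 and 0.0389 FPKM (3.73), and Kif20a, which acts in cytokinesis, with 1.85, 5.60 and 3.46 FPKM against 0.104, 0.0334 and 0.0276 FPKM (2.05). Cenpe, the kinetochore motor, had 40.5, 17.0 and 43.0 FPKM in BMDM and 0.0352, 0.357 and 0.217 FPKM in BSM (4.74), and Cenpf, a large kinetochore protein, had 7.21, 4.83 and 9.05 FPKM against 0.0987, 0.0600 and 0.0982 FPKM (2.85). In Cenpe, Cenpf and Mki67 it was BMDM replicate 2 that was lowest. Cdc20, which activates the anaphase-promoting complex, stayed below the minimum, with 2.21, 2.16 and 1.85 FPKM in BMDM and 0.0664, 0.702 and 0.0244 FPKM in BSM.

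Because these genes moved together, their promoters were examined in the windows that RefSeq gives for GRCm38.p6, from 250 bases before to 50 bases after each start. A window was found for 39 of the 48 genes (44 windows), and none for Ccnd1, Ccnd2, Ccne2, Gmnn, Mcm4, Ccna2, Aurkb, Kif20a and Stmn1. Both strands were searched for the CHR element as TTTGAA and in its variant form TTCGAA, for the CCAAT box, which binds NF-Y, by the letters CCAAT, and for short E2F words, namely TTTGGCG with the related forms TTTCCCG and, thirdly, TTTCGCG. Of the 15 windows of G2 and mitosis genes, 12 (80%) held a CHR and 14 (93.3%) a CCAAT box, whereas of all 32851 windows 19.2% held a CHR and 37.4% a CCAAT box. Both elements were in 12 of the 15 windows and in 7.52% of all windows. E2F words were in 2 of these 15 windows (13.3%), in 6 of the 10 windows of licensing and fork genes (60%) and in 5.58% of all windows. A CHR was in 3 of the 10 licensing and fork windows and in none of the 4 windows of Ccnd3, Cdk4 and Cdk6. The CCAAT box was not particular to G2 and mitosis genes. It was in 8 of the 10 licensing and fork windows (80%) and in 31 of the 44 windows (70.5%). No CHR shared bases with another motif in the 44 windows, while 2 windows held E2F words that overlapped each other. A match shows only that the letters are present. The 250 bases before the start are printed for Mki67, Top2a and Kif11 as G2 and mitosis genes with a CHR, for Mcm6 as a licensing gene with E2F words and for Cdk6 as a gene that overlapped between the cell types, 5′ to 3′ on the strand of the gene, with the CHR, CCAAT and E2F matches in capitals and positions on GRCm38.p6.
Mki67, chr7:135716380-135716629, minus strand: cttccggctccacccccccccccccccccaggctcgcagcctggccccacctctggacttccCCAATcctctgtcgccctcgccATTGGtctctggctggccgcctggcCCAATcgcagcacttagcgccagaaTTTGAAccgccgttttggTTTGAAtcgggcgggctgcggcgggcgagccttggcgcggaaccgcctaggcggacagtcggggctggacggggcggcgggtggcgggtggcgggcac
Top2a, chr11:99024190-99024439, minus strand: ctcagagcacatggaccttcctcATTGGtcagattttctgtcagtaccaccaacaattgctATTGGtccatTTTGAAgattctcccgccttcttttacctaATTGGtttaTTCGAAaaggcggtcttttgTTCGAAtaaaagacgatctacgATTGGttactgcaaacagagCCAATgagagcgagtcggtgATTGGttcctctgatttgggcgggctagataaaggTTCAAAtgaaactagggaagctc
Kif11, chr19:37376132-37376381, plus strand: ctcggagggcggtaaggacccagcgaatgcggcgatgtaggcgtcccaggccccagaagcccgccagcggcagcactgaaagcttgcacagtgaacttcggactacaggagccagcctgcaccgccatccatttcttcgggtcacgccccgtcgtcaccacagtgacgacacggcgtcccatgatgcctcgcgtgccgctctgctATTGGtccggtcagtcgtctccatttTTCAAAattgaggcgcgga
Mcm6, chr1:128359706-128359955, minus strand: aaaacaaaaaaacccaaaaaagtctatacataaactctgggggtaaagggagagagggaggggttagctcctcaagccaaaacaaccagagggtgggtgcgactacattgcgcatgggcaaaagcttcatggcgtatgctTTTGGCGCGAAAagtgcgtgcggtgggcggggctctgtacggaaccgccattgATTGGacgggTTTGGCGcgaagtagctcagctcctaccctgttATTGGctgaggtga
Cdk6, chr5:3343643-3343892, plus strand: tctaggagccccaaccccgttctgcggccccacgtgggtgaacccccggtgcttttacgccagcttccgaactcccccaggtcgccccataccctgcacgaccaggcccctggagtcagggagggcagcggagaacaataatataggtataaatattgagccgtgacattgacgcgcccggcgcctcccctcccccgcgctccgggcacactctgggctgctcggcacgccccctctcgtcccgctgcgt
The CHR stands in capitals in either form or as TTCAAA, which is TTTGAA on the other strand, and the CCAAT box stands as CCAAT or, on the other strand, as ATTGG. The Mki67 and Top2a stretches hold several of each, that of Kif11 holds 1 of each, that of Mcm6 holds E2F words and CCAAT boxes and no CHR, and that of Cdk6 holds none of the 3.

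The genes of replication licensing and of the fork differed less than those of mitosis, and more of them kept some expression in BSM. They summed to 60.6, 98.9 and 101 FPKM in BMDM and to 12.3, 19.3 and 18.8 FPKM in BSM. All 8 that passed the minimum were higher in BMDM (median log2 fold change 2.09), with limma adjusted p-values between 6.98e-05 (Mcm4) and 0.006 (Pcna). All but Pcna reached the minimum only in BMDM, where 74.8% of all such genes were called higher in BMDM. Most of the BSM sum was Pcna, the clamp that holds polymerases on DNA, which had 28.4, 43.4 and 48.9 FPKM in BMDM and 9.60, 16.4 and 16.5 FPKM in BSM, a 2.84-fold difference of the means (log2 fold change 1.44, standard error 0.31, limma adjusted p = 0.006). By the mean it was the gene with the highest level in BSM among the 45. Its call depended on the scaling of the libraries, as it was 0.66 after quantile normalization (limma adjusted p = 0.125) and 0.18 with equal sums of FPKM (0.645), and a pseudogene copy covered 51.4% of its transcript.

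The MCM2 to MCM7 subunits form the helicase that is loaded at origins in G1. Mcm6 had 8.83, 19.6 and 16.5 FPKM in BMDM and 0.907, 0.557 and 0.451 FPKM in BSM (log2 fold change 3.23, standard error 0.32, limma adjusted p = 0.000158). Mcm4 had 10.3, 9.53 and 11.9 FPKM against 0.0985, 0.698 and 0.474 FPKM (3.04, standard error 0.26, limma adjusted p = 6.98e-05). These subunits were the most abundant in BMDM and stayed below 1 FPKM in BSM. Mcm5 had 2.37, 4.66 and 4.50 FPKM against 0, 0.103 and 0.0439 FPKM (2.17). Mcm3 had 2.88, 5.41 and 4.84 FPKM against 1.35, 0.803 and 0.671 FPKM (1.45, limma adjusted p = 0.00474), a call that was lost after quantile normalization (0.89, 0.0556) and with equal sums of FPKM (0.61, 0.138). Mcm7, of which copies covered 81.2%, had 3.01, 6.18 and 6.40 FPKM against 0.356, 0.586 and 0.528 FPKM (2.01). Mcm2 lay below the minimum, with 0.475, 1.79 and 0.979 FPKM in BMDM and 0, 0.0767 and 0.0143 FPKM in BSM, and its call with a minimum of 1 (0.97, limma adjusted p = 0.0213) was lost when no minimum was set (0.0529). The mean level of the subunits of this complex in BMDM thus ranged from 1.08 FPKM for Mcm2 to 15.0 FPKM for Mcm6, and every BMDM library lay above every BSM library for each of the 6.

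Of the factors that load the helicase, Cdc6 had 2.82, 5.05 and 3.83 FPKM in BMDM and 0.00197, 0.00513 and 0.0286 FPKM in BSM (log2 fold change 2.25, limma adjusted p = 0.000595). Gmnn, which encodes geminin, the inhibitor of Cdt1, had 1.56, 3.18 and 2.83 FPKM against 0, 0 and 0.0437 FPKM (1.77, limma adjusted p = 0.00286). Cdt1 itself had ALEXA-Seq values of 9.31, 13.1 and 12.4 in BMDM and 0, 0.385 and 0.761 in BSM. The groups did not overlap for any of the 3. Under its older symbol Cdc45l, Cdc45, which travels with the active helicase, had 1.64, 4.03 and 3.50 FPKM against 0, 0.0859 and 0.0989 FPKM (1.88, standard error 0.34, limma adjusted p = 0.00275). Likewise Cdc2a, the older symbol of the mitotic kinase Cdk1, had 4.38, 16.2 and 6.33 FPKM in BMDM and 0, 0.0423 and 0.187 FPKM in BSM (3.03, standard error 0.43, limma adjusted p = 0.000875). Neither is counted among the 45 genes.

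The genes of nucleotide synthesis summed to 31.1, 59.5 and 47.1 FPKM in BMDM and to 1.297, 3.46 and 2.80 FPKM in BSM. Rrm2, the subunit of ribonucleotide reductase that is made in S phase, had 15.0, 28.2 and 21.3 FPKM in BMDM and 0, 0.177 and 0.0537 FPKM in BSM (log2 fold change 4.34, standard error 0.28, limma adjusted p = 2.01e-05). Its partner Rrm1 had 6.94, 15.6 and 11.6 FPKM against 0.452, 0.550 and 0.592 FPKM (2.95, limma adjusted p = 0.000196). Rrm2 was the higher of the subunits in each BMDM library and Rrm1 in each BSM library. In BSM both stayed below 1 FPKM, and copies covered 27.9% of the Rrm2 transcript, so their order there is uncertain. Tyms, the thymidylate synthase, had 7.26, 13.9 and 12.2 FPKM against 0.205, 1.73 and 1.07 FPKM (2.63, limma adjusted p = 0.000886). Tk1, the thymidine kinase, was low in both cell types, with 1.90, 1.80 and 2.09 FPKM in BMDM and 0.640, 1.01 and 1.08 FPKM in BSM, and its call with a minimum of 1 (log2 fold change 0.63, limma adjusted p = 0.048) was lost when no minimum was set (limma adjusted p = 0.0743 for Tk1).

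At the G1/S transition the 5 genes summed to 18.7, 19.8 and 21.9 FPKM in BMDM and to 0.033, 1.24 and 1.61 FPKM in BSM. E2f2, an activator of replication genes, had 10.0, 11.3 and 8.98 FPKM in BMDM and 0, 0.0964 and 0.140 FPKM in BSM (log2 fold change 3.36, standard error 0.23, limma adjusted p = 2.73e-05). Ccne2, a cyclin that activates Cdk2, had 4.99, 4.30 and 8.49 FPKM against 0.0306, 0.770 and 1.22 FPKM (2.07, standard error 0.37, limma adjusted p = 0.00265), and this call was lost after scaling to the same sum (1.35, 0.0549). E2f2 was the most abundant of the role in BMDM. The others were below the minimum. Ccne1 had 1.45, 0.708 and 1.33 FPKM in BMDM and 0, 0 and 0.00584 FPKM in BSM, E2f1 had 0.746, 1.66 and 1.18 FPKM against 0.00239, 0.0626 and 0.0344 FPKM, and Cdk2 had 1.51, 1.89 and 1.88 FPKM against 0, 0.314 and 0.217 FPKM. With a minimum of 1 all 3 were higher in BMDM, with log2 fold changes of 1.09, 1.07 and 1.24, as were 37.2% of all genes tested at that minimum. None of the 3 reached 1 FPKM in BSM.

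The D-type cyclins were the exception to the common direction, with Ccnd1 higher in BSM and Ccnd3 higher in BMDM. Ccnd1 (chr7:152115836-152125774, mm9) had 1.19, 0.438 and 1.16 FPKM in BMDM and 15.1, 13.3 and 9.08 FPKM in BSM, 13.4-fold more in BSM by the means (log2 fold change -2.80, standard error 0.29, limma adjusted p = 0.00019). Ccnd3 (chr17:47730491-47736632, mm9) had 16.5, 25.8 and 17.1 FPKM in BMDM and 1.07, 0.479 and 0.478 FPKM in BSM, 29.4-fold more in BMDM (3.63, standard error 0.28, limma adjusted p = 3.92e-05). Ccnd2 was near 0 in both, with 0.0640, 0.0144 and 0.126 FPKM in BMDM and 0, 0 and 0.0120 FPKM in BSM. The log2 ratio of Ccnd1 to Ccnd3, which no scaling of a library can move, was -3.80, -5.88 and -3.88 in BMDM and 3.82, 4.79 and 4.25 in BSM (exact two-sided permutation test, p = 0.1, the smallest possible). The ALEXA-Seq values gave -4.04, -6.02 and -4.15 against 3.56, 4.41 and 3.96. Ccnd1 thus made up 6.68%, 1.67% and 6.30% of the D-type cyclin FPKM in BMDM and 93.4%, 96.5% and 94.9% in BSM. The sum of the 3 cyclins differed much less, with 17.8, 26.2 and 18.4 FPKM in BMDM and 16.1, 13.8 and 9.57 FPKM in BSM. Copies covered 58.3% of the Ccnd3 transcript, so its values are uncertain, and the locus next to Ccnd1, Oraov1, which overlaps it, reached at most 2.30 FPKM.

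The kinases that these cyclins activate did not separate the cell types in the FPKM. Cdk4 had 2.89, 7.71 and 5.80 FPKM in BMDM and 6.11, 2.51 and 1.83 FPKM in BSM, or 0.57 on the log2 scale with a 95% interval of -0.43 to 1.57 (limma adjusted p = 0.292). Its overlap came from BSM replicate 1 alone, the library with many values at 0. The other BSM libraries lay below every BMDM library. Cdk6 had 8.02, 19.9 and 14.8 FPKM against 6.11, 14.2 and 10.7 FPKM, or 0.41 on the log2 scale with a 95% interval of -0.51 to 1.34 (limma adjusted p = 0.401). Either interval still allows a difference of more than 1 on the log2 scale, and the sign turned after quantile normalization (-0.07 for Cdk4 and -0.36 for Cdk6) and with equal sums of FPKM (-0.48 and -0.80). Cdk4 shares its locus with Tspan31, whose FPKM reached 8.45, so that reads of the 2 genes may not be told apart. In the ALEXA-Seq values Cdk4 had 17.0, 29.6 and 25.9 in BMDM and 15.9, 10.6 and 12.4 in BSM, without overlap.

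The CDK inhibitors differed least among the roles with a common direction. Cdkn2c, which encodes the Cdk4 and Cdk6 inhibitor p18, had 1.43, 3.70 and 2.29 FPKM in BMDM and 0, 0.0539 and 0.0684 FPKM in BSM (log2 fold change 1.69, standard error 0.34, limma adjusted p = 0.00481). Cdkn1a, which encodes p21, had 4.00, 2.68 and 3.79 FPKM against 2.67, 1.53 and 0.935 FPKM (0.76, 95% interval 0.05 to 1.48, limma adjusted p = 0.0668). Cdkn1b, which encodes p27, had 3.91, 2.89 and 5.13 FPKM against 0.585, 2.45 and 2.83 FPKM (0.83, 95% interval -0.07 to 1.72, limma adjusted p = 0.101). The lowest BMDM library lay just above the highest BSM library in both. Without BSM replicate 1, the library with many values at 0, Cdkn1a had a log2 fold change of 1.01 (limma adjusted p = 0.0109), and both genes turned sign after scaling to the same sum (-0.15 and -0.09). All 3 inhibitors were thus present in BMDM, at 9.33, 9.28 and 11.2 FPKM in sum, beside the genes of division.

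Both genes of the remaining pair were higher in BMDM. Stmn1, which encodes the microtubule-destabilizing protein stathmin, had 19.8, 42.9 and 41.5 FPKM in BMDM and 0.226, 0.583 and 1.18 FPKM in BSM (log2 fold change 4.39, standard error 0.37, limma adjusted p = 6.38e-05). Ezh2, the methyltransferase of Polycomb complex PRC2, had 14.2, 13.6 and 22.0 FPKM against 0.00894, 1.27 and 1.46 FPKM (3.27, standard error 0.39, limma adjusted p = 0.000373). Neither gene overlapped between the cell types in any library. Near-identical copies covered 42.5% of the Stmn1 transcript, so its values are uncertain.

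Other genes of the cell cycle were counted from a list of 116, of which 115 had a row, 6 of them under older symbols, and 79 passed the minimum. Of these, 68 were higher in BMDM and 11 were not called, with a median log2 fold change of 2.39, where 45.3% of all genes tested were higher in BMDM and 9.22% in BSM. Among the 79 genes, 62 reached the minimum only in BMDM and 60 of those were called, against 74.8% of all such genes. None was higher in BSM, neither by the limma adjusted p nor at an unadjusted p under 0.05, although E2f3, an E2F activator, had 1.43, 4.85 and 2.15 FPKM in BMDM and 5.03, 5.33 and 4.22 FPKM in BSM and was called higher in BSM without BMDM replicate 2 (log2 fold change -1.08). The mitotic spindle and kinetochore genes had 40 of 43 called, the DNA polymerases and fork proteins 14 of 15, the pocket proteins, other E2F factors and inhibitors 6 of 8, the checkpoint genes 4 of 5 and the genes of origin recognition and firing 4 of 8. The largest log2 fold changes were those of E2f8 (5.04), Smc4 (4.48), Nusap1 (4.12), Foxm1 (4.12) and Ube2c (4.00). E2f8, a repressor of E2F targets, had 27.0, 36.3 and 36.1 FPKM in BMDM and 0, 0.0232 and 0.0708 FPKM in BSM, and Foxm1, an activator of mitotic genes, had 12.1, 22.7 and 23.0 FPKM against 0, 0.252 and 0.138 FPKM. Smc4, a condensin subunit, kept more expression in BSM, with 177, 53.2 and 173 FPKM in BMDM and 4.84, 3.04 and 5.47 FPKM in BSM. In contrast, the origin recognition subunits Orc1 to Orc4 were not called, and Orc4 had 23.4, 23.7 and 19.3 FPKM in BMDM and 2.47, 26.0 and 26.6 FPKM in BSM. BSM replicate 1 was the library apart there, as it was for Orc3, with 4.38 FPKM against 16.2 and 14.5 FPKM in the other BSM libraries.

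Within BSM the libraries differed in how many of the 45 genes were listed at 0, with 20 in replicate 1, 4 in replicate 2 and 1 in replicate 3. Of the 20, 17 were also at 0 in the ALEXA-Seq values. No BMDM library listed any of the genes at 0. With BSM replicate 1 left out, 35 of the 38 genes tested were called, 34 of them higher in BMDM. Of all 6364 genes tested, 3194 were then called higher in BMDM and 738 in BSM.

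Within BMDM, replicate 2 was compared with replicates 1 and 3. It lay above both in 27 of the 45 genes and below both in 12, where the shares over all genes tested were 50.5% and 30.1%. The ALEXA-Seq values put it above both in 31 and below both in 11 of 46 genes, where the shares were 56.4% and 26.8%. The median difference over the 38 genes tested was 0.43 on the log2(FPKM + 1) scale, where all genes had 0.13, with no replicate check as 1 library stood on one side. It was 0.74 against replicate 1 alone and 0.16 against replicate 3 alone, so that much of it lay between replicates 1 and 2. Replicate 1, male by the labels, was the lowest of the 3 in 31 of the 45 genes (68.9%) and in 56.3% of all genes tested.

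The genes did not move as a block in replicate 2. The kinases of mitosis and several subunits of replication were up to 2.46-fold above the mean of the other libraries, with Mcm2 at 2.46, Plk1 at 2.39, Aurka at 2.27 and Kif20a at 2.11 times that mean. At the other end were Ccnd2 at 0.152, Ccnd1 at 0.373, Cenpe at 0.407, Ccne1 at 0.510, Cenpf at 0.595 and Mki67 at 0.626 times that mean. Cenpe, Cenpf and Mki67 have long transcripts, but so do Top2a and Cdk6, which were at 1.47 and 1.74 times that mean. For the 35 genes with a BMDM mean of at least 3 FPKM, the 5 with transcripts of 5000 bases or more had a median log2 difference of -0.65, the 19 of intermediate length 0.36 and the 11 under 2500 bases 0.61. Of all genes, 4827 had the same mean level and 3987 of these (82.6%) a matched transcript length, for which the same bins had medians of -0.01, 0.14 and 0.30. Spearman's rho between the difference and transcript length was -0.24 over the 35 genes and -0.26 over the 3987, given as a description across genes of the same libraries, and the rho with GC content was 0.33 and 0.44. The relation with length was not particular to replicate 2, since the difference of replicate 3 from replicate 1 had a rho with length of -0.24 over the 35 genes and of -0.19 over the 3987. The part of transcript length and of GC content in the differences of replicate 2 was not tested.

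**Figure D2:**
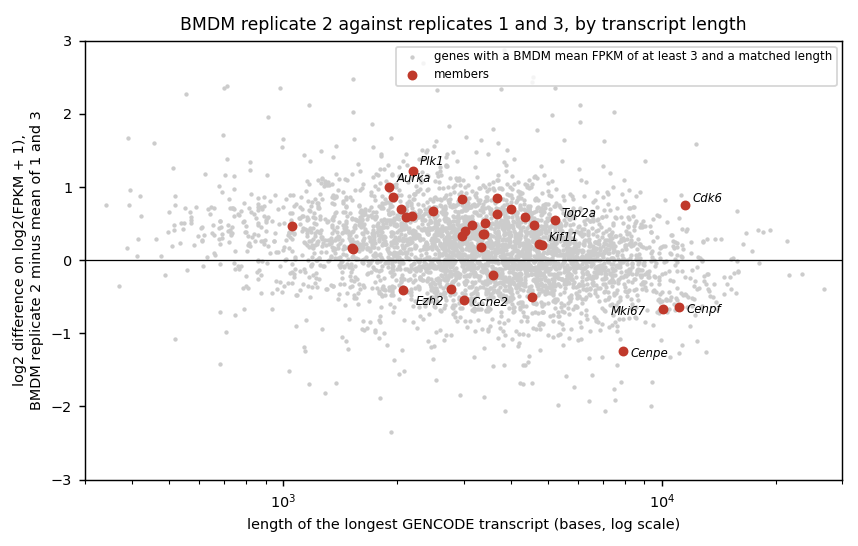
Difference of BMDM replicate 2 from the mean of replicates 1 and 3 on the log2(FPKM + 1) scale against the length of the longest GENCODE transcript in bases (log axis), for the 35 genes in red and for the 3987 genes with a BMDM mean of at least 3 FPKM and a matched length in gray, 14 of which lie outside the axes. Cenpe, Cenpf and Mki67 are at the lower right, while Cdk6, also long, lies above 0.

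Markers of other marrow cells moved in the same library by larger factors. All 7 primary granule markers, all 7 neutrophil markers and all 8 erythroid markers were highest in replicate 2, as were 7 of 9 B lineage markers. Mpo had 32.7, 181 and 67.1 FPKM, Elane 9.75, 56.0 and 10.7 FPKM and Ngp 2.44, 77.1 and 3.44 FPKM in BMDM replicates 1, 2 and 3, whereas Ly6g was at 0, 0.293 and 0 FPKM. The 8 markers of stem and progenitor cells were mixed, and 5 of them were highest in replicate 2, such as Myb with 1.78, 7.17 and 3.84 FPKM and Kit with 0.347, 1.46 and 0.562 FPKM. In contrast, Sox4 was lowest there (0.157, 0.107 and 0.147 FPKM), Cd34 lay between the other libraries (0.445, 0.559 and 0.922 FPKM), both of these were called higher in BSM than in BMDM, and Gata2 was at or near 0. In comparison, the G2 and mitosis genes summed to 420, 568 and 551 FPKM in replicates 1, 2 and 3, and the licensing genes to 60.6, 98.9 and 101 FPKM. The first of these sums joins genes that moved apart. Of the 17 G2 and mitosis genes, 10 were highest in replicate 2 and 3, with the abundant Mki67 and Cenpe among them, were lowest there. The shares over all genes tested were 50.5% and 30.1%. The part of other marrow cells in the levels of the cell cycle genes was not tested, and granule markers such as Mpo were present in all 3 BMDM libraries. Without replicate 2, 34 of the 38 genes tested were called. Of all 6364 genes tested, 2313 were then called higher in BMDM and 507 in BSM. The median log2 fold change between BMDM and BSM was 3.04 for the 38 genes, where all genes tested had 0.75.

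**Figure D3:**
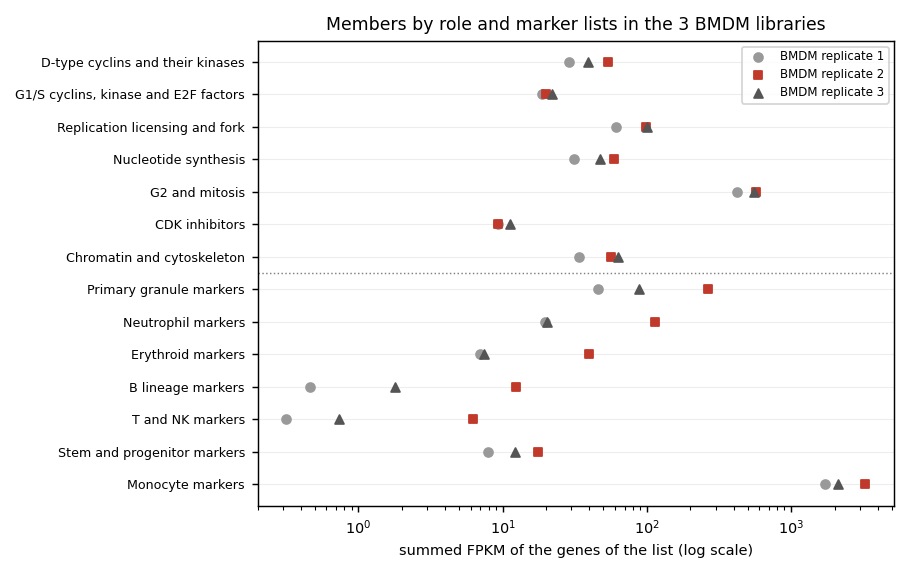
Summed FPKM (log axis) of the cell cycle genes by role, above the dotted line, and of the marker lists, below it, in the 3 BMDM libraries. Replicate 2, in red squares, lies beside replicate 3 and to the right of replicate 1 for the genes of G2 and mitosis and of licensing. It lies far to the right of both other libraries for the granule, neutrophil, erythroid and lymphocyte markers.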

How the data were processed

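The RNA-Seq data came from 3 BMDM and 3 BSM libraries, whose groups and replicate numbers were read from the labels. Per the labels, RNA was extracted with TRIzol and amplified with the Ovation method, and libraries were sequenced as paired ends. The submitters' processing notes name CASAVA 1.7.0, Bowtie 0.12.7, TopHat 1.3.1, Cufflinks 1.0.3 and the mm9 build. The authors deposited FPKM from Cufflinks for each gene, and a signal per gene from ALEXA-Seq, on a linear scale whose unit is not given in the sources used here. Neither table holds read numbers, and the mapped reads that the study states for each library were not used here, so that no counting interval is given. Starts in the FPKM table are counted from 0 and were raised by 1.

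FPKM were compared on log2(FPKM + 1) with limma 3.58.1 in R 4.3.3 (mean-variance trend, group as the only term) over the 6364 genes that reached 3 FPKM in 1 library or more, with Benjamini-Hochberg adjustment and a threshold of 0.05. The 6364 highest ALEXA-Seq genes were tested likewise. The fit was tested on simulated data. The genes, lists and tests were chosen with earlier results of these data known. All genes of the list are accounted for by role, and of the other cell cycle genes those with the 5 largest log2 fold changes in a direction are named. Replicates are labelled biological.

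Transcript lengths, GC content and copies (blastn 2.17.0, matches of at least 100 bases at 95% identity) came from GENCODE transcripts of another build, matched by symbol. Whether the counting used strand is not given, so reads of overlapping loci may be shared, as for Ccna2 with Exosc9, Ccne2 with Ints8, Cdc20 with Elovl1, Kif20a with Cdc23 and Mcm7 with Cops6. Samples with the same replicate number did not deviate together. Alternatives were another pseudocount, other minimums, other scalings, no trend, the replicate number as a block and leaving out each library.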

Additional observations from a re-analysis of the deposited data

How the results depend on the processing

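The number of genes called stayed between 31 and 40 under the alternatives for the FPKM. The extremes for genes higher in BMDM were 30 after scaling to the same sum and 39 with a minimum of 1. Over all genes tested, these settings called 968 of 6364 and 3585 of 9637 genes higher in BMDM. Ccnd1 was the gene higher in BSM throughout. Leaving out each library gave 34 to 35 genes, 33 to 35 for the ALEXA-Seq values, 64 to 70 of the other cell cycle genes and a median log2 difference between 2.87 and 3.15. That median, 3.00 as reported, was 4.89 with a pseudocount of 0.1 (all genes 1.04), 2.54 with a minimum of 1 (0.58), 2.46 with no minimum (0.03), 2.41 after quantile normalization (0.12) and 2.33 with equal sums of FPKM (-0.23). The genes called over the whole table split into 1520 higher in BMDM and 1093 higher in BSM after quantile normalization, and 968 and 1585 with equal sums of FPKM. Of the other cell cycle genes, 0 were higher in BSM as reported and 1, E2f3, after either scaling and without BMDM replicate 2 (0 to 1 over the libraries left out).

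The sign turned for Cdk4 after quantile normalization (-0.07) and with equal sums of FPKM (-0.48), for Cdk6 (-0.36 and -0.80), and after scaling to the same sum for Cdkn1a (-0.15) and Cdkn1b (-0.09). None of these was called. In the ALEXA-Seq values Cdk6 turned after quantile normalization (-0.43), without BMDM replicate 2 (-0.01) and without BSM replicate 1 (-0.01), in a range of -0.01 to 0.67 over the libraries left out, and the call of Cdkn1a (1.21, limma adjusted p = 0.042) was lost in most alternatives. The cause was not tested.

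With the replicate number as a block, 34 of the genes were called, as without the block, 34 instead of 35 in the ALEXA-Seq values and 67 instead of 68 of the other cell cycle genes. Deviations of same-numbered samples had correlations of -0.019, -0.008 and 0.134, and not every sample correlated best with its own number. Besides the number, same-numbered samples share the sex that the labels give, which a block on the number includes. For single genes, 42 of 51 in the FPKM and 34 of 37 in the ALEXA-Seq values kept their direction and their side of the threshold under every alternative run. The lack of read numbers per gene and 3 libraries in a group limit the precision for genes near 0.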
